A study of Zea mays with 6 samples.

Results

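The genes described here are 6 maize MADS-box genes of the AP1/FUL and SEP groups, taken from a deposited table of 39604 genes by their identifiers. They are m15 (GRMZM2G553379), m4 (GRMZM2G032339), m28 (GRMZM2G147716) and zap1 (GRMZM2G148693), which are AP1/FUL-like, and m24 (GRMZM2G087095) and m31 (GRMZM2G071620), which are SEP-like. The members were chosen by their FPKM values in this same contrast of hda108 with wild type, so their levels are given as a description and no test is attached to them. The genes m24 and m31 were also chosen for their place, as neighbours of m4 and m15. All 6 identifiers matched a RefSeq entry carrying these names.

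The tissue was the immature 11th leaf, enclosed by older leaves, of greenhouse-grown plants at vegetative stage 8, and total RNA depleted of ribosomal RNA was sequenced. There were 3 strand-specific libraries of wild type and 3 of the homozygous hda108/hda108 mutant. The product of HDA108 is a histone deacetylase, which takes acetyl groups off histone tails. The allele and the inbred background of the plants are not given in the sources used here. The table holds 1 FPKM value per gene and genotype (a fragment count corrected for transcript length and sequencing depth), so the spread between plants is unknown. Differences therefore stand without a test or an error.

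MADS-box proteins are transcription factors that work as dimers and larger complexes and are best known for setting the identity of floral organs and meristems. AP1/FUL-like proteins act at the change from vegetative to reproductive growth, and in grasses such as wheat the AP1/FUL-like gene VRN1 is also transcribed in leaves, where it accompanies the promotion of flowering. SEP proteins are partners that bring other MADS-box proteins together in floral complexes. In flowering plants AP1/FUL-like and SEP-like genes often lie next to each other.

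HDA108 itself (GRMZM2G136067), the mutated gene, had 10.9 FPKM in wild type against 3.06 FPKM in hda108, which is 28.1% of the wild-type value. The table's values summed to 478867 FPKM in wild type against 482019 FPKM in hda108. A gene entered the comparison if it had a value above 0 in each genotype and averaged at least 1 FPKM, which left 21057 genes. Differences are log2 differences of FPKM + 0.5, hda108 minus wild type, and understate the change of low values. A difference of at least 1 on this scale (2-fold) was singled out as a rule of size.

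All 6 genes had higher values in hda108 than in wild type, by amounts that ranged from small to several-fold. The values of m15 and m4 were several-fold higher in hda108 and that of m28 was 1.17 times as high, while zap1, m24 and m31 were at or below 1.89 FPKM in both. Of the 5 members that passed the filter, 3 were at least 2-fold higher in hda108 (m15, m4 and m31) and 0 at least 2-fold lower. The background over all compared genes was 1.48% at least 2-fold higher and 0.836% at least 2-fold lower. Because the members were chosen for these values, nothing is read from their count or their median against that background. The median difference of the 5 members was 1.56, which is the value of m31. That of all compared genes was 0.06, of which 12578 had differences above 0 and 8479 below. In whole leaf tissue, more cells that transcribe a gene and more RNA per cell cannot be told apart.

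**Figure D1:**
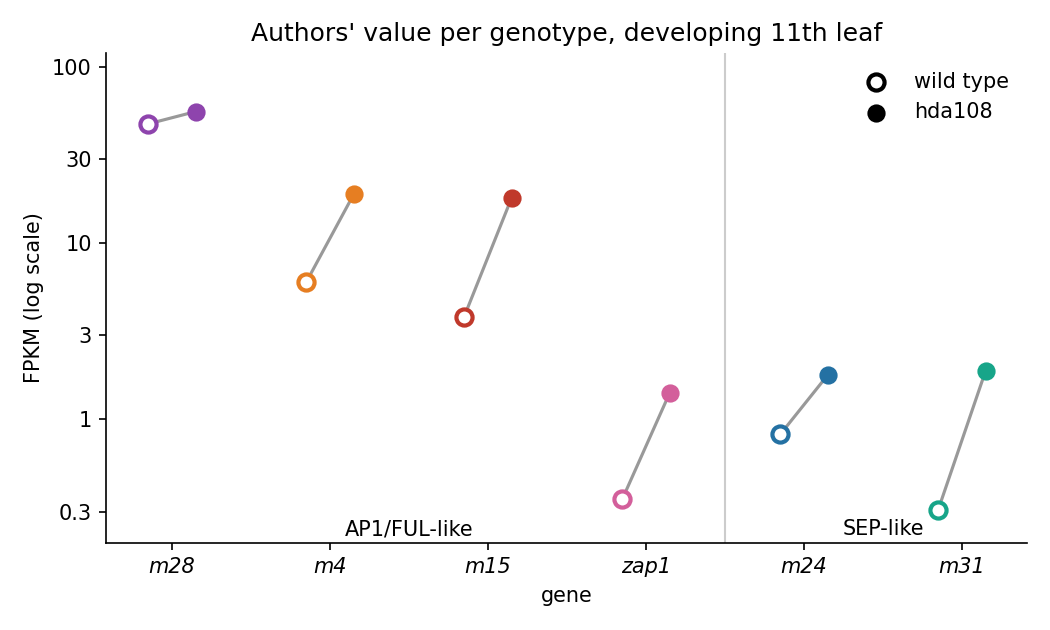
FPKM on a log axis for each of the 6 genes, with open circles for wild type, filled circles for hda108 and a line joining the values of a gene; each circle is the authors' value for a genotype and carries no error. Every filled circle lies above its open circle, m28 is highest in both genotypes, and m4 and m15 lie close together in hda108 at 18.9 and 18.1 FPKM.

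The gene m15 is AP1/FUL-like and lies on chromosome 5 from 6993293 to 7011505 (B73 RefGen_v3, as are all coordinates here). It had 3.84 FPKM in wild type against 18.1 FPKM in hda108. The mutant value was therefore 4.71 times the wild-type value, or 4.28-fold higher on the FPKM + 0.5 scale (log2 difference 2.10). By level m15 moved from position 15098 among the 39604 listed genes in wild type to position 5094 in hda108. Its difference was the 31st highest of the 21057 compared genes.

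The gene m4, its duplicate copy elsewhere in the maize genome, is known in maize for earlier flowering when it is overexpressed. It lies on chromosome 1 from 277218150 to 277298925, a locus of 80.8 kb, and had 6.01 FPKM in wild type against 18.9 FPKM in hda108. That is 3.15 times the wild-type value and a log2 difference of 1.58. Its level rank went from 12259 to 4881. In wild type the level of m4 was 1.57 times that of m15, and in hda108 it was 1.05 times, so the copies stood closer in the mutant. Reads shared by such copies can be split between them by the counting step, whose settings are not given in the sources used here, and the separate values of m15 and m4 are uncertain to that extent. Their summed level was 9.84 FPKM in wild type against 37.0 FPKM in hda108, 3.76 times as high.

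The gene m28 was the most abundant of the 6 in both genotypes. It is AP1/FUL-like, and maize plants that overexpress it have been described as growing more vigorously. It lies on chromosome 7 from 164451096 to 164456819. The values were 47.5 FPKM in wild type against 55.8 FPKM in hda108, a log2 difference of 0.23 (1.17-fold on the FPKM + 0.5 scale). A larger upward difference was held by 25.0% of all compared genes. In wild type m28 had 7.91 times the level of m4 and 12.4 times that of m15. In hda108 these ratios were 2.95 and 3.09.

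The fourth AP1/FUL-like gene, zap1, is a maize homologue of Arabidopsis APETALA1, a gene that sets floral meristem identity. It lies on chromosome 2 from 236669674 to 236679078. It had 0.352 FPKM in wild type against 1.41 FPKM in hda108. The mean of 0.881 FPKM is below the filter, so zap1 is not among the compared genes. Its log2 difference of 1.17 rests on low values. With no filter on the mean, 1.44% of 28264 genes were at least 2-fold higher and 0.785% at least 2-fold lower, and zap1 would join m15, m4 and m31 among the members past 2-fold.

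Taken as a group of transcripts, the AP1/FUL-like genes summed to 57.7 FPKM in wild type against 94.2 FPKM in hda108. The makeup of that sum differed between the genotypes. In wild type m28 made up 82.3% of it, m4 10.4%, m15 6.65% and zap1 0.610%. In hda108 the share of m28 was 59.3%, that of m4 20.1% and that of m15 19.2%, with zap1 making up the rest. Of the 36.5 FPKM by which the sum was higher in hda108, m15 contributed 14.2 FPKM, m4 12.9 FPKM, m28 8.29 FPKM and zap1 1.06 FPKM.

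The SEP-like genes m24 and m31 were near the bottom of the comparable range. The gene m24 lies on chromosome 1 from 277377467 to 277415566, and had 0.822 FPKM in wild type against 1.78 FPKM in hda108, a log2 difference of 0.79. The gene m31 lies on chromosome 5 from 6925446 to 6932461, and had 0.308 FPKM in wild type against 1.89 FPKM in hda108, a log2 difference of 1.56. Both passed the filter only through the hda108 value, since neither reached 1 FPKM in wild type, and such genes had to be higher in hda108 to enter the comparison. They are duplicates of each other in maize, and reads shared between them carry the same uncertainty as for m15 and m4. The level of m24 was 2.67 times that of m31 in wild type and 0.945 times in hda108. Their sum was 1.13 FPKM in wild type against 3.67 FPKM in hda108.

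The order of the differences depends on the scale at these levels. As plain ratios of FPKM, m31 had the largest (6.13), followed by m15 (4.71), zap1 (4.01), m4 (3.15), m24 (2.17) and m28 (1.17). On the FPKM + 0.5 scale m15 came first at 4.28-fold, and m4 (2.98-fold) and m31 (2.95-fold) were nearly level. With a pseudocount of 0.1 the log2 difference of m24 was 1.03 and passed 2-fold, and with a pseudocount of 1 that of zap1 was 0.83 and did not. By level, the order in wild type was m28, m4, m15, m24, zap1 and m31. In hda108 it was m28, m4, m15, m31, m24 and zap1. No spread between plants is available to say which neighbours in either order differ.

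**Figure D2:**
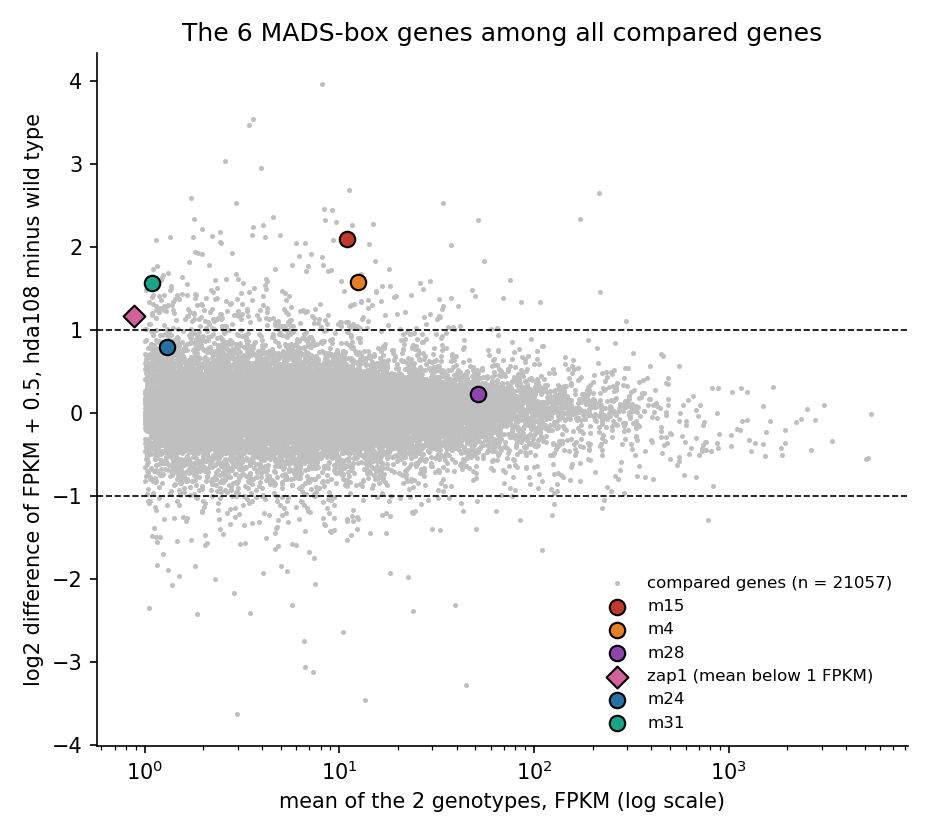
Log2 difference (hda108 minus wild type, on FPKM + 0.5) against the mean FPKM of the genotypes on a log axis, with small grey points for the 21057 compared genes, large points for the members and a diamond for zap1, whose mean is below the filter; dashed lines mark 2-fold. The points of m15 and m4 lie above the upper line at means of 11.0 and 12.5 FPKM, m28 lies within the bulk of genes, and m24, m31 and zap1 lie at the left edge.

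The share of genes past 2-fold differed with level. Among genes with a mean of 1 to 5 FPKM, where m24 and m31 lie, 2.41% were at least 2-fold higher in hda108 and 1.13% at least 2-fold lower. Among those with a mean of 5 to 20 FPKM, where m15 and m4 lie, the shares were 1.03% and 0.707%. At 20 FPKM and above, where m28 lies, they were 0.846% and 0.623%.

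By the locus column, 4 of the 6 genes lie in SEP-AP1/FUL pairs. Since m24 and m31 were chosen as neighbours of m4 and m15, the pairing itself is no finding. The members were also chosen by their values, so nothing is read from the shared direction within a pair. On chromosome 5, m31 and m15 are successive entries separated by 60.8 kb with 0 entries between them, and the pair spans 86.1 kb. On chromosome 1, m4 and m24 are successive entries separated by 78.5 kb, also with 0 entries between them, and span 197 kb. In each pair both genes had higher values in hda108, and in each the AP1/FUL-like gene was the more abundant. In wild type m15 had 12.5 times the level of m31 and m4 had 7.31 times that of m24. In hda108 these ratios were 9.58 and 10.6. None of the 6 genes shares its locus entry with another gene, and none lies on chromosome 4, which carries HDA108.

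Genes with names in the Bk2L series, used for relatives of the maize stalk-strength gene brittle stalk2, lie near both pairs and near m28. Bk2L4 (GRMZM2G071970) lies 7.81 kb from m31 and had 22.9 FPKM in wild type against 22.6 FPKM in hda108. Bk2L3 (GRMZM5G826714) lies 31.1 kb from m24 and had 88.2 and 87.8 FPKM. Bk2L7 (GRMZM2G167497) lies 209 kb from m28 and had 8.56 and 8.55 FPKM. Bk2L6 (GRMZM2G167520), the entry beside Bk2L7, was below the filter, with 0.178 and 0.0896 FPKM. The 3 compared genes of the series differed by at most 0.02 on the log2 scale.

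Of the 5 nearest entries on each side of each member, 40 distinct entries were other genes and 27 of these could be compared. By the log2 difference, 0 of these were at least 2-fold higher and 0 at least 2-fold lower in hda108. Their differences ran from -0.82 to 0.96, with 13 above 0 and 14 below. Since 1.48% of all compared genes were at least 2-fold higher, a count of 0 among 27 is near the background. The nearest compared entry before m4, GRMZM2G032962, ends 0.196 kb from the m4 locus and had 5.48 FPKM in wild type against 5.37 FPKM in hda108. On the far side of m24, GRMZM2G021781 lies 26.8 kb away and had 3.19 FPKM in wild type against 6.71 FPKM in hda108. Its log2 difference of 0.96 was the upper end of the range. As a plain ratio of FPKM it was 2.10 times as high in hda108, so its place below 2-fold depends on the scale.

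On chromosome 5, GRMZM2G071745 lies 3.37 kb from m31 and had 25.8 FPKM in wild type against 29.3 FPKM in hda108. Beyond m15, GRMZM2G130053 lies 108 kb away and had 13.9 FPKM in wild type against 7.70 FPKM in hda108 (log2 difference -0.82), the lower end. The entries nearest m28 were GRMZM2G045287, with a difference of -0.11, and GRMZM2G157505, with -0.27. The compared entries nearest zap1 on each side were GRMZM2G048494, with -0.32, and ACK2 (GRMZM2G143602), with 0.18.

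**Figure D3:**
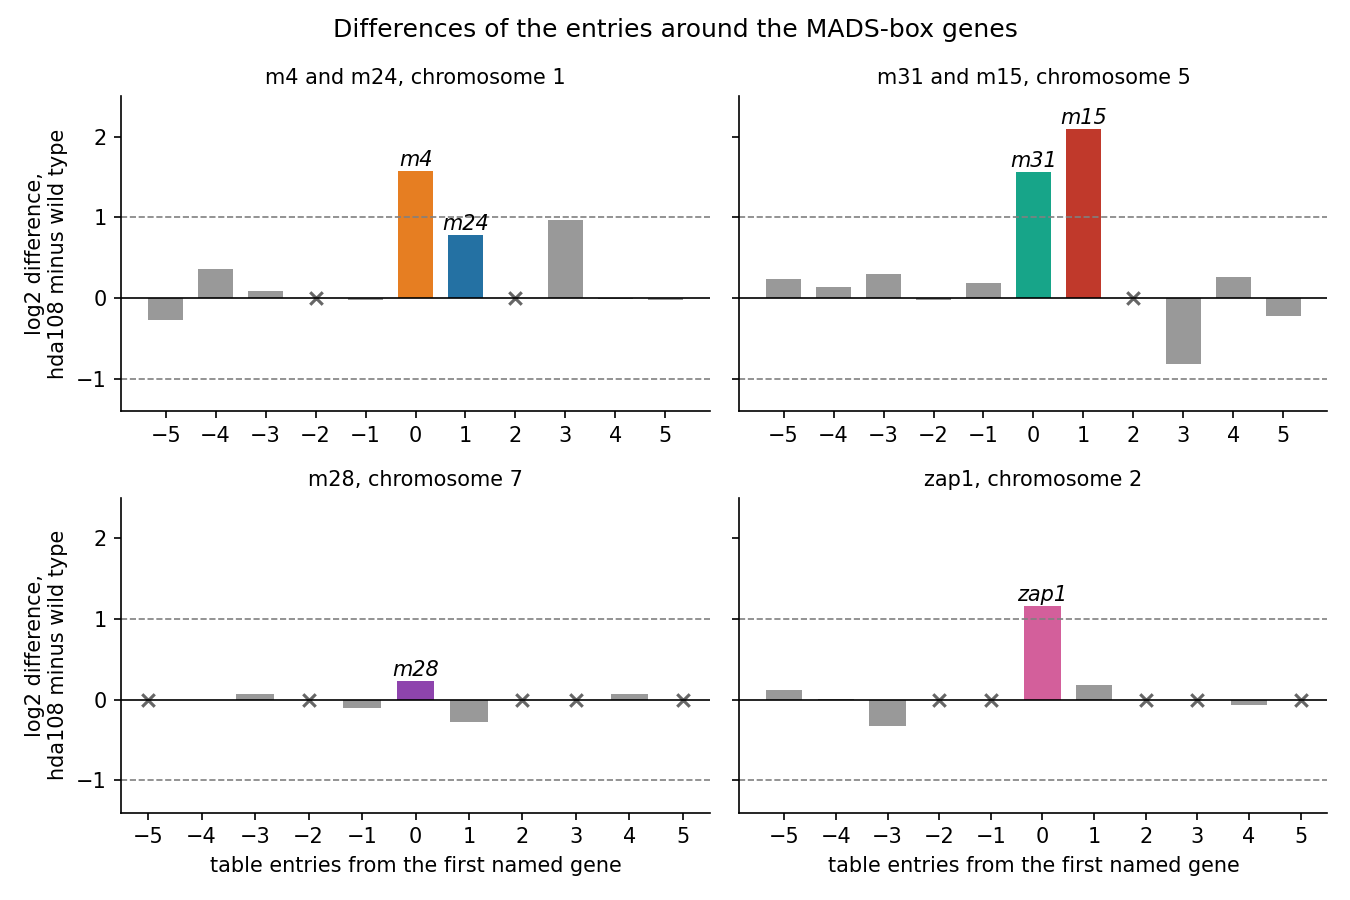
Log2 difference (hda108 minus wild type, on FPKM + 0.5) for the 5 table entries on each side of m4, m31, m28 and zap1, in the order of the locus column; coloured bars are the 6 genes, grey bars the other compared entries, crosses at 0 the entries that could not be compared, and dashed lines mark 2-fold. The bars of m4, m31, m15 and zap1 are the ones beyond the upper line, and the other entries run from -0.82 to 0.96.

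A list of other MADS-box genes was filled by name. It held 35 entries, of which 13 could be compared, 1 was at least 2-fold higher in hda108 and 0 at least 2-fold lower. Of the 13, 8 had differences above 0 and 5 below, and the median was 0.04 beside 0.06 for all compared genes. Over all compared genes 12578 were above 0 and 8479 below, and 1.48% were at least 2-fold higher and 0.836% at least 2-fold lower. The entries matched by the name M2, GRMZM2G034362 and GRMZM2G332687, are also named as myosin in RefSeq and may be no MADS-box genes.

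The entry past 2-fold was MADS36 (GRMZM2G079727), with 0.245 FPKM in wild type against 1.97 FPKM in hda108, which also passed the filter through its hda108 value alone. The entries with the highest means were MADS76, m19 and m26. MADS76 (GRMZM2G070034) had 73.2 FPKM in wild type against 74.3 FPKM in hda108. The gene m19 (GRMZM2G370777), known as Tunicate1, whose misexpression encloses kernels in glumes in pod corn, had 59.2 and 54.7 FPKM. The gene m26 (GRMZM2G046885) had 39.0 and 41.7 FPKM. In wild type m20 (GRMZM2G059102), chosen after its value was seen, was as abundant as m26, with 40.4 FPKM, and had 24.7 FPKM in hda108 (log2 difference -0.70). The lowest difference of the list was that of m5 (GRMZM2G171365), chosen after its value was seen and named SOC1 in RefSeq after an Arabidopsis flowering gene, with 10.4 FPKM in wild type against 5.32 FPKM in hda108.

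A list of flowering regulators and photoreceptors was filled by name, and 17 of its 28 entries were of the ZCN family. A place on it does not show that a gene acts upstream of AP1/FUL-like genes. Of the 28 entries, 12 could be compared. Of these 0 were at least 2-fold higher and 0 at least 2-fold lower, beside 1.48% and 0.836% of all compared genes. Differences were above 0 for 5 and below for 7, and the median was -0.09. All compared genes had 12578 above, 8479 below and a median of 0.06. The phytochrome gene PhyB1 (GRMZM2G124532) had 12.3 FPKM in wild type against 9.78 FPKM in hda108. The gene ids1 (GRMZM5G862109), which limits the number of florets in the maize spikelet, had 8.92 and 7.71 FPKM. The gene id1 (GRMZM2G011357), a leaf-expressed regulator that maize needs for normal flowering, had 6.04 FPKM in wild type against 6.17 FPKM in hda108.

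Genes of the florigen pathway were chosen after their values were seen. ZCN8 (GRMZM2G179264), the maize gene with florigen activity, had 1.68 FPKM in wild type against 0.863 FPKM in hda108, a log2 difference of -0.68. It passed the filter only through its wild-type value, and such genes had to be lower in hda108 to enter the comparison. DLF1 (GRMZM2G067921), whose bZIP protein acts with florigen at the shoot apex, had 0.963 and 0.588 FPKM and was below the filter. ZCN7 (GRMZM2G141756), a relative of ZCN8, had 0.638 and 0.212 FPKM and was also below it. Other genes of the ZCN family went the other way, such as ZCN11 (GRMZM2G117057), with 0.379 and 0.848 FPKM, and ZCN18 (GRMZM2G158809), with 0.111 and 0.295 FPKM. Of 17 ZCN entries 12 had a value in both genotypes, of which 6 were higher in hda108 and 6 lower, and 3 could be compared.

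**Figure D4:**
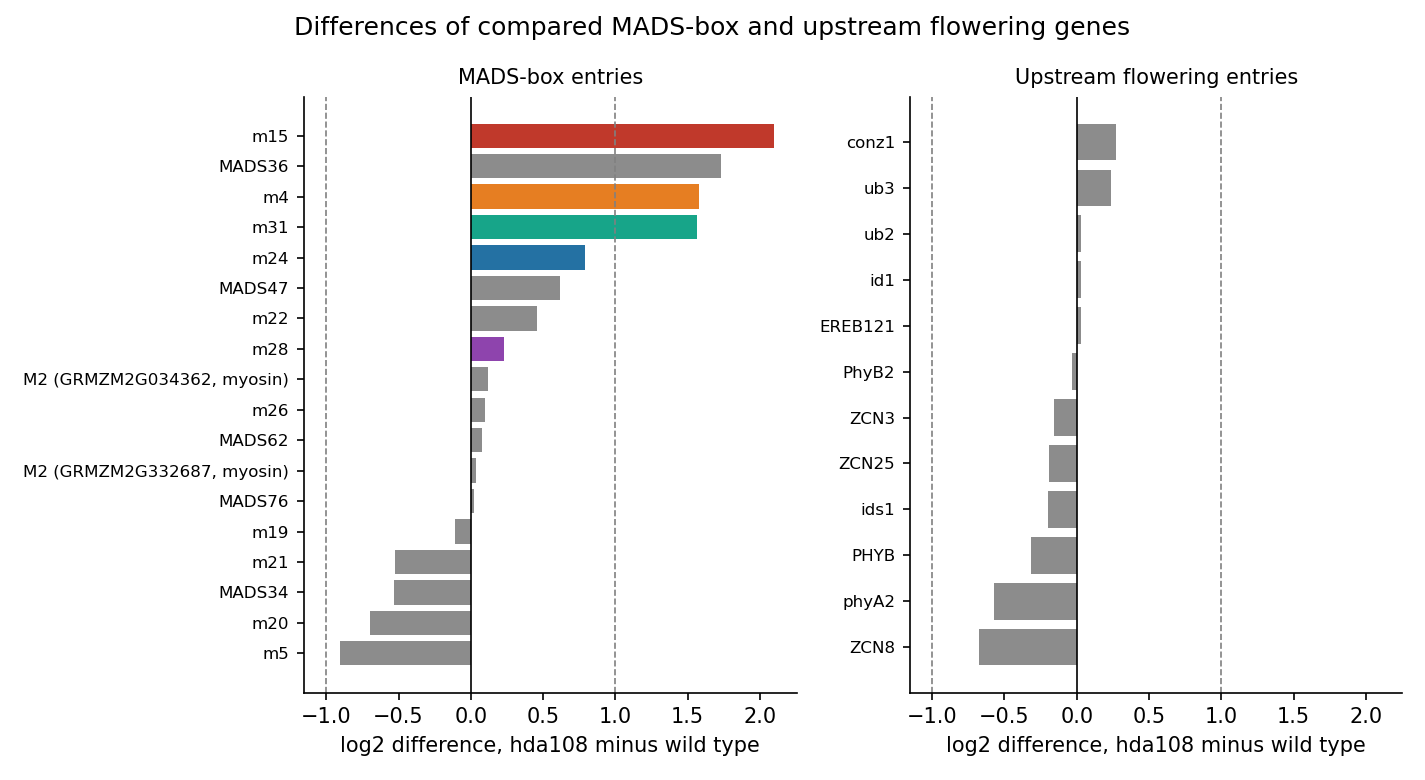
Log2 difference (hda108 minus wild type, on FPKM + 0.5) for each compared MADS-box entry, left, with members in colour and other entries in grey. The right panel, headed upstream flowering, holds each compared entry of the list of flowering regulators and photoreceptors. Dashed lines mark 2-fold. The members m15, m4 and m31 and the entry MADS36 lie beyond the upper line, no entry lies beyond the lower one, and ZCN8 is lowest in the right panel at -0.68.

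Whether the leaf samples carried shoot apex or inflorescence tissue, in which AP1/FUL-like and SEP-like genes are also transcribed, was looked at through a list of 24 genes. Its summed level was 64.7 FPKM in wild type against 65.6 FPKM in hda108. Of 7 compared entries 0 were past 2-fold in either direction, with 4 above 0, 3 below and a median of 0.02. The meristem gene kn1 (GRMZM2G017087) had 0.025 FPKM in wild type against 0.022 FPKM in hda108, and 6 entries were listed at 0 in both genotypes, among them the inflorescence branching genes ra1 and ra3 and the spikelet meristem gene bd1. The LEAFY-like gene zfl1 (GRMZM2G098813) had 0.479 FPKM in wild type against 0.270 FPKM in hda108. The most abundant entries were knox6 (GRMZM2G370332), with 14.8 and 14.4 FPKM, fea3 (GRMZM2G166524), with 12.0 and 13.9 FPKM, and knox7 (GRMZM2G433591), with 10.2 and 12.1 FPKM. Also present were ts2 (GRMZM2G455809), with 8.44 and 6.37 FPKM, BIF1 (GRMZM2G130953), with 7.99 and 7.65 FPKM, ts1 (GRMZM2G104843), with 6.84 and 7.28 FPKM, and fea2 (GRMZM2G104925), with 1.44 and 1.47 FPKM. These are the 7 compared entries, and most of the summed level is theirs. Whether they are also transcribed in the leaf itself was not examined. The sum and the median therefore do not show how much apex or inflorescence tissue the samples held. Whether such tissue had a part in the values of the MADS-box genes was not tested.

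Leaf markers were present in both genotypes, and most had lower values in hda108. Of 13 compared entries among 14, 11 had lower values in hda108 and 2 higher, 1 was at least 2-fold lower and 0 at least 2-fold higher, and the median was -0.45. Over all compared genes 12578 differences were above 0 and 8479 below, and 1.48% were at least 2-fold higher and 0.836% at least 2-fold lower. The list summed to 2971 FPKM in wild type against 1667 FPKM in hda108. The C4 enzyme gene pdk1 (GRMZM2G306345) had 1111 FPKM in wild type against 455 FPKM in hda108. The photosystem gene psah1 (GRMZM2G451224) had 886 and 649 FPKM, and the NADP-malic enzyme gene me3 (GRMZM2G085019) had 384 and 196 FPKM. The list was filled by name and also holds other genes named PDK1 and Pep1. None of its entries was at 0. The part of these differences in those of the MADS-box genes was not tested.

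By the pair of values alone, the named genes nearest to m15 were EREB36 and m4. Only compared genes with a name were searched, and 2762 of the 39604 listed identifiers had a name. Both m15 and m4 were chosen by these same values, so nothing is read from their nearness. The measure was the distance over the 2 values of log2(FPKM + 0.5), so it compares 2 points and says nothing of how genes vary between plants. EREB36 (GRMZM2G069082, chromosome 7), an ethylene response factor gene, had 2.92 FPKM in wild type against 16.3 FPKM in hda108, at a distance of 0.37 from m15. The gene m4 stood at 0.59. The nearest to m4 were PPCK2 (GRMZM2G135091, chromosome 4), with 6.37 and 16.3 FPKM at a distance of 0.22, and TPS2 (GRMZM2G046615, chromosome 5), with 7.59 and 16.0 FPKM at 0.39.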

How the data were processed

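The authors deposited FPKM values, 1 per gene and genotype. The labels describe 3 libraries per genotype as biological replicates, and how these were combined, and any scaling between them, is not given in the sources used here. Tools listed in the submitters' processing notes, without role or order, are TopHat2 2.0.13, Cuffdiff 2.2.1, Cufflinks, SAMtools, Trimmomatic 0.33 and CASAVA 1.8, with the build B73 RefGen_v3. The mutant column, named as homozygous, was read as hda108. Depth is unknown. Among the 200 lowest genes with a value in both genotypes, at most 2 shared a ratio of the genotypes. Each value stands for 3 libraries combined in an unknown way, so whole-read steps need not show as shared ratios. Nothing is read from this check.

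Differences were computed as log2(FPKM + 0.5), hda108 minus wild type, for genes with both values above 0 and a mean of at least 1 FPKM. The plan was a description without a test, with limma only if there was 1 column per library. There were no such columns, so limma was not run. Names came from a RefSeq table of Zm-B73-REFERENCE-NAM-5.0, used for names alone: 18538 identifiers matched 1 entry and 521 matched several and stayed unnamed. The members and lists were chosen with earlier results of these data known. Named were all members, list entries past 2-fold, the 3 highest in mean of each list, the nearest compared entry on each side of a member, the 2 nearest patterns and HDA108; others were chosen after their values were seen. The counting step was tested on simulated data. Alternatives covered the pseudocount, the filter, 3 scalings and shared locus entries. Python 3.11.15, numpy 2.4.6, pandas 2.3.3 and matplotlib 3.10.9 were used.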

Additional observations from a re-analysis of the deposited data

Results flagged for a closer look

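Family entries left out of the fold comparison by their low mean had a value of at least 1 FPKM in hda108 that was at least 2-fold the wild-type value in 2 cases. These were zap1 (GRMZM2G148693), with 1.41 FPKM in hda108 and 0.352 FPKM in wild type, and the SEP-like entry GRMZM2G102161 (names M14, M8, zmm14 and zmm8 in RefSeq), with 1.17 FPKM in hda108 and 0.506 FPKM in wild type. The names of the latter cover several genes.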

How the results depend on the processing

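All 6 members stayed above 0 under every alternative that gave a value for them: m15 between 1.98 and 2.21, m4 between 1.51 and 1.64, m31 between 1.14 and 2.28 and m28 between 0.17 and 0.23. The call changed for zap1 (0.83 with a pseudocount of 1) and m24 (1.03 with a pseudocount of 0.1), which ran from 0.83 to 1.74 and from 0.61 to 1.03. With a minimum mean of 5 FPKM, 133 of 13686 genes were at least 2-fold higher and 93 at least 2-fold lower, since fewer genes were compared; m24, m31 and zap1 then dropped out. Higher values made up 63.9% of the genes past 2-fold as reported and 55.2% after quantile normalization. The other alternative values, 90 of 94, kept their direction and side of 2-fold, their count within 1.5 times, or their list median within 0.1. Within that tolerance the count of members at least 2-fold higher still moved. It was 3 as reported, 4 with a pseudocount of 0.1 or no filter on the mean, and 2 with a minimum mean of 5 FPKM. The alternative without the entries also named myosin was chosen after seeing the data. No paired analysis was possible because the table holds 1 value per genotype, and leaving out each replicate could not be run for the same reason. The depth behind the values is unknown, so the counting error of low values such as those of zap1, m24 and m31 cannot be given.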

Other observations

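Many entries of the list of other MADS-box genes were too low to compare. Of its 22 entries that could not be compared, 8 were listed at 0 in both genotypes, among them bde1, ZAG5 and m17. Of the 13 with a value in both, 9 were higher in hda108 and 4 lower. Over all compared genes, which leave out such low entries, 12578 had differences above 0 and 8479 below. The split over all genes below the filter was not computed, so nothing is read from the 9 and 4. Their highest values were 0.515 FPKM in wild type against 1.17 FPKM in hda108. The floral organ genes zmm16 (GRMZM2G110153), with 0.515 and 0.776 FPKM, and si1 (GRMZM2G139073), with 0.134 and 0.207 FPKM, differed by 0.33 and 0.16 on the log2 scale. ZAG1 (GRMZM2G052890), an AGAMOUS-like gene, had 0.092 and 0.144 FPKM. These named genes are among the 9. The 4 that were lower in hda108 were m27 (GRMZM2G129034), m6 (GRMZM2G159397), zmm2 (GRMZM2G492156) and MADS4 (GRMZM2G097059). In wild type and hda108, m27 had 0.214 and 0.008 FPKM and m6 had 0.127 and 0.046 FPKM. For zmm2 the values were 0.222 and 0.139 FPKM, and for MADS4 0.085 and 0.072 FPKM.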
